A study of Camellia sinensis with 9 samples.

Results

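The G stage against the W stage of ‘Anji Baicha’ is the comparison described here, unigene by unigene. ‘Anji Baicha’ is a tea plant (Camellia sinensis) cultivar whose young leaves turn white in cool spring weather and green again when the weather warms. W is the albescent stage, in which the leaf blade was white, and G is the re-greening stage, in which the leaves had turned green. A unigene is a transcript sequence assembled from the RNA-seq reads without a genome. The unigenes counted were those with an FPKM of at least 1 in G or W, where FPKM is the number of fragments per kilobase of unigene, scaled to the mapped fragments of the library. They numbered 67475 of 179951, or 37.5% of all unigenes.

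Both groups were leaves of the same cultivar, with no treatment named in the labels, from 4-year-old plants grown in 1 tea germplasm repository, with 3 libraries per stage. By the study's methods, the W leaves were the second or the third leaf of the shoot in the middle of April, and the G leaves were the fifth or the sixth leaf in early May, when it was warmer. Stage, leaf position, date and temperature therefore cannot be told apart. The deposited tables hold 1 FPKM value per unigene and stage, in which the 3 libraries had already been combined, so no replicate spread, interval or p-value can be given. All differences below are sizes, given as log2(FPKM + 1) in G minus log2(FPKM + 1) in W, a scale that understates the difference of weakly expressed unigenes. The number of fragments behind a value is unknown. In bulk leaf tissue, fewer cells of a type and less RNA per cell cannot be told apart.

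Greening of a leaf requires that chlorophyll, carotenoids and their binding proteins are made together in the chloroplast. Chlorophyll is built from glutamate through the tetrapyrrole pathway, into which magnesium is inserted before protochlorophyllide is reduced in the light and the phytol tail is added. Carotenoids come from plastid isoprenoid precursors and both harvest light and protect against its excess. Theanine, the amino acid that gives tea its umami taste, is made from glutamate and ethylamine and thus draws on the same nitrogen supply as chlorophyll.

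The unigenes have no deposited sequence among the files used here, and the identifiers matched no entry of the reference gene table (0 of 179951). The primers that the study designed for quantitative RT-PCR are the only sequences that identify them, and they exist for 40 of the pathway unigenes. Those of the unigenes on which the chlorophyll and theanine results below turn are shown, 5′ to 3′, the sense primer first and the antisense primer second, with no base singled out by capitals.
CAO unigene37586 sense: cttcttgtctactaacccgccttc
CAO unigene37586 antisense: tgctacagttgcgactatctctctc
CLH unigene131928 sense: caagaacccatggaaaaagagcag
CLH unigene131928 antisense: gaagggggaaagttgagtgtgaaat
PORA unigene62053 sense: gaccttgctgtctttgtatgccttg
PORA unigene62053 antisense: gcctacctaggggacatgaggg
PORA unigene7972 sense: tggaagactgaaagatacaaggaaa
PORA unigene7972 antisense: ccagaataatcacccacatagatga
PORA unigene8789 sense: acccttggtgatgtacttttggaa
PORA unigene8789 antisense: tgaggagacaggaataacttttgct
GS and TS unigene58305 sense: tactcgagacacaaacagagccca
GS and TS unigene58305 antisense: gtatttcataatcccaacccaacct
CRD unigene12598 and unigene26832 sense: atgactggaaggctaagttgtggg
CRD unigene12598 and unigene26832 antisense: gcatgtcgaattctttggtgttga
The 2 CRD unigenes share 1 primer pair, the only unigenes of the 40 that do, so these primers do not identify either one alone. The 3 PORA pairs shown are all different. How the authors divided reads between unigenes of the same enzyme is not given in the sources used here.

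Of the 67475 unigenes counted, 56997 had an FPKM above 0 in both stages, 6367 (9.44%) were listed at 0 in G and 4111 (6.09%) were listed at 0 in W. The median difference over all of them was 0.01, with quartiles at -0.49 and 0.48. Among the 56997 with a value in both stages, 3972 were at least 2-fold higher in G (6.97%) and 2949 at least 2-fold lower (5.17%), which made 12.1%. The counts higher and lower became 3550 and 3357 when each stage was scaled by its upper quartile. They became 3933 and 3045 when quantiles were normalized. As deposited and counted together with the unigenes listed at 0 in 1 stage, 25.8% were at least 2-fold apart. That was made up of 12.0% higher and 13.8% lower. Every unigene counted that was listed at 0 in 1 stage is at least 2-fold apart by construction, since the other stage then holds at least an FPKM of 1.

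**Figure D1:**
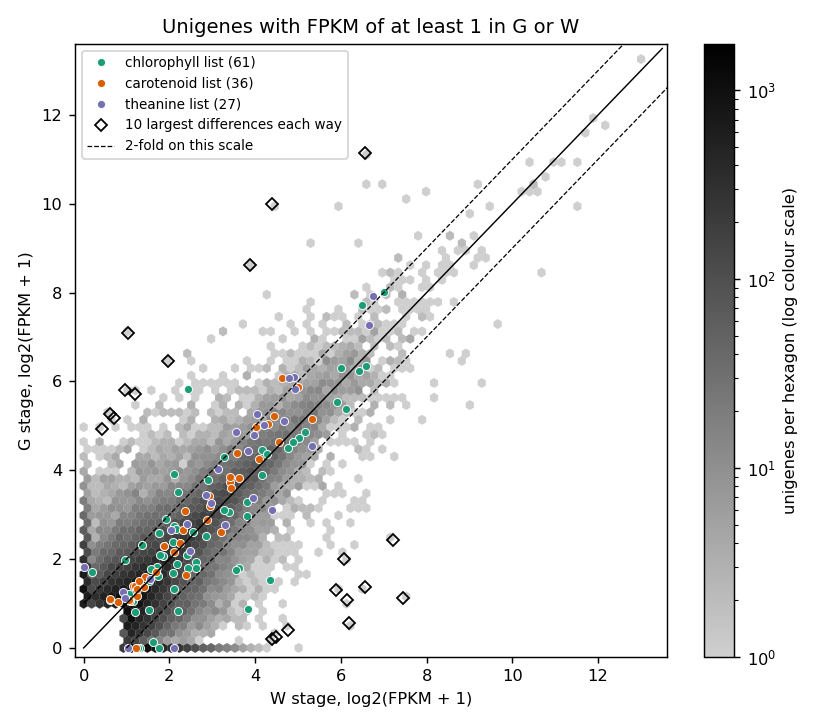
FPKM of each unigene counted, W stage on the x axis and G stage on the y axis, both as log2(FPKM + 1), with the number of unigenes per hexagon in grey. Coloured points are the pathway lists, diamonds the 10 largest differences each way among unigenes above 0 in both stages, the solid line marks equal values and the dashed lines a 2-fold difference; most unigenes lie between the dashed lines, and those listed at 0 form the bands along the axes.

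In the values as deposited, large differences were more often in favour of G. The larger fold steps were not counted under other scalings. At least 4-fold apart were 595 unigenes higher and 271 lower in G, among those with a value in both stages. At least 8-fold apart were 129 and 42, and at least 16-fold apart were 22 and 11. The 3972 unigenes at least 2-fold higher in G had a summed FPKM of 15020.2 in W and 60942 in G. The 2949 unigenes at least 2-fold lower went from 33017 in W to 8469.6 in G. Each set was chosen by these same values, so the direction of its sums was fixed in advance. For scale, all unigenes summed to 349550 in W and 370564 in G.

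The balance between higher and lower unigenes depended on the expression level. In the class whose larger FPKM was between 1 and 2, 449 of 25992 unigenes with a value in both stages were at least 2-fold higher and 449 lower, a balance that became 369 and 571 when each stage was scaled by its upper quartile and 675 and 311 when quantiles were normalized. Between 10 and 50, 857 of 5349 were higher (16.02%) and 387 lower (7.24%). At 100 or more, 73 of 271 were higher (26.9%) and 42 lower (15.5%). The median difference followed the same order, with -0.02 in the lowest of these classes, 0.16 in the middle one and 0.28 in the highest. Under quantile normalization, which forces both stages to 1 common distribution, the medians of the classes between 10 and 50 and at 100 or more became -0.01 and 0.00, while 724 against 488 and 61 against 55 unigenes were counted on the higher and lower side. Upper-quartile scaling left both medians above 0, at 0.08 and 0.20.

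**Figure D2:**
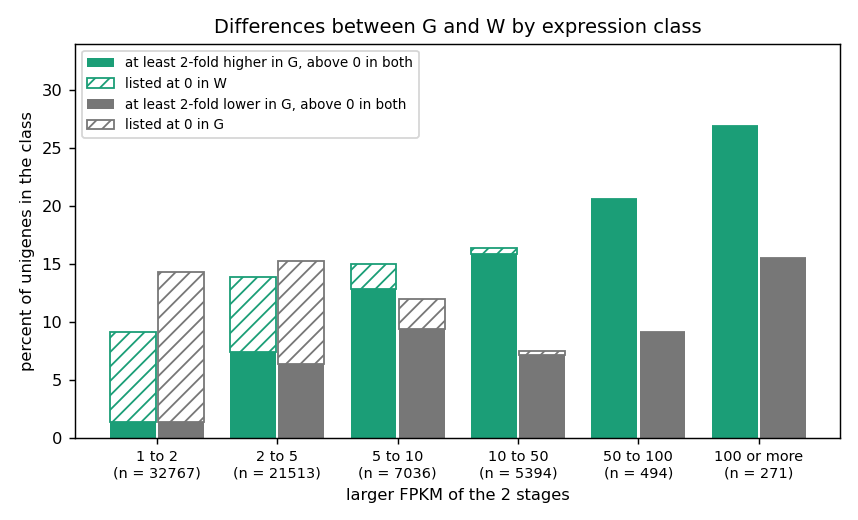
Percent of unigenes at least 2-fold higher (green) or lower (grey) in G than in W, by the larger FPKM of the stages, with the number of unigenes in each class under its label. Solid bars are unigenes above 0 in both stages and hatched bars those listed at 0 in 1 stage. The hatched part makes up most of the bar height in the lowest class. It is absent at an FPKM of 50 or more, where green exceeds grey.

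The 10 largest differences in favour of G belonged to unigenes that the files do not pair with gene names. Unigene18222 had an FPKM of 1.04 in W and 136 in G, a difference of 6.06. Unigene10787 had 19.9 and 1022, a difference of 5.61. Both were weak or moderate in W, whereas unigene27033 was already at 93.6 in W and reached 2263 in G, a difference of 4.58 that made it the fifth most abundant unigene of the G stage. Unigene7067 had 13.7 in W and 396 in G, and unigene119349 had 2.94 and 87.2. The remaining 5 of the 10 (unigene110201, unigene22393, unigene89021, unigene94623 and unigene33064) lay between 0.336 and 1.31 in W and between 29.3 and 54.8 in G. In YG, the first and yellow-green stage of the series, which took no part in the choice, all 10 had an FPKM of 1.47 or less. Only unigene22393, with 1.47 in YG against 0.521 in W, was lower in W than in YG.

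The 10 largest differences in the other direction had high W values, as a large negative difference on this scale requires. Unigene20309 had an FPKM of 174 in W and 1.17 in G, a difference of -6.34, and unigene65933 had 72.2 and 0.469, a difference of -5.64. Unigene31055 had 92.8 and 1.57, and unigene4923 had 147 and 4.396. The other 6 (unigene17198, unigene42926, unigene42871, unigene45341, unigene8379 and unigene83650) lay between 19.95 and 69.8 in W and between 0.146 and 2.998 in G. Their YG values were of several kinds. Unigene65933 had 1105 in YG and unigene20309 had 199, above their W values, whereas unigene17198 had 6.78, unigene4923 had 13.9 and unigene42871 had 0.909, well below them.

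The 4 unigenes highest in W were also the 4 highest in G. Unigene97332 was the highest in both, with 8214 in W and 9804 in G. Unigene21, which was listed at 0 in YG, had 4589 and 3728, unigene102569 had 4008 and 3878, and unigene97322 had 3551 and 3013. All 4 were within 2-fold of each other between W and G, and so was unigene4192, the fifth in W, with 3044 against 1863.

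Unigenes listed at exactly 0 in 1 stage are described apart, since a 0 can be a failed estimate and no fold can be formed. The 6367 listed at 0 in G had a median FPKM of 1.60 in W, and 66.6% of them were below 2 there. The 4111 listed at 0 in W had a median of 1.70 in G, and 61.7% were below 2. Only 18 of the first set reached an FPKM of 10 in W and only 27 of the second did so in G. Low values were common among all 67475 unigenes counted, of which 32767 had a larger FPKM between 1 and 2. The share listed at 0 in 1 stage was 20.7% in that class. It was 15.4% between 2 and 5, 4.82% between 5 and 10, and 0.83% between 10 and 50. The highest values beside a 0 in the other stage were those of unigene168239, with 33.4 in W, and unigene125585, with 30.8 in G. The next in W were unigene148823 with 17.4, unigene174642 with 16.7, unigene129484 with 15.3 and unigene120590 with 14.8. The next in G were unigene134270 with 22.3, unigene132288 with 21.1, unigene99662 with 18.7 and unigene130540 with 17.5. In YG, 46.6% of the unigenes listed at 0 in G and 35.3% of those listed at 0 in W had a value above 0. The same share over all unigenes counted was not computed, so these cannot be called high or low.

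These unigenes were concentrated by their number in the assembly. Among unigenes numbered 1 to 130000, 2.63% of those counted were listed at 0 in G and 1.42% in W. From 130001 on, 26.9% were listed at 0 in G and 18.1% in W. The 0 values of W were densest between 130001 and 140000, at 30.0% against 1.59% for G, and those of G between 150001 and 160000, at 57.9% against 1.86% for W. Other stretches held many 0 values of both stages, with 17.0% for G and 28.5% for W between 140001 and 150000, 18.1% and 9.71% between 120001 and 130000, and 36.4% and 18.9% from 170001 on. The next counts include the unigenes listed at 0, which are 2-fold apart by construction. Up to number 130000, a boundary set after the values were seen, 3740 of 48528 unigenes were at least 2-fold higher in G and 3286 lower. Of the higher ones 690 were listed at 0 in W, and of the lower ones 1276 in G. From 130001 on, 4343 of 18947 were higher and 6030 lower. There, 3421 of the higher ones were listed at 0 in W and 5091 of the lower ones in G. What the numbering follows is not given in the sources used here, and its part in the 0 values was not tested.

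**Figure D3:**
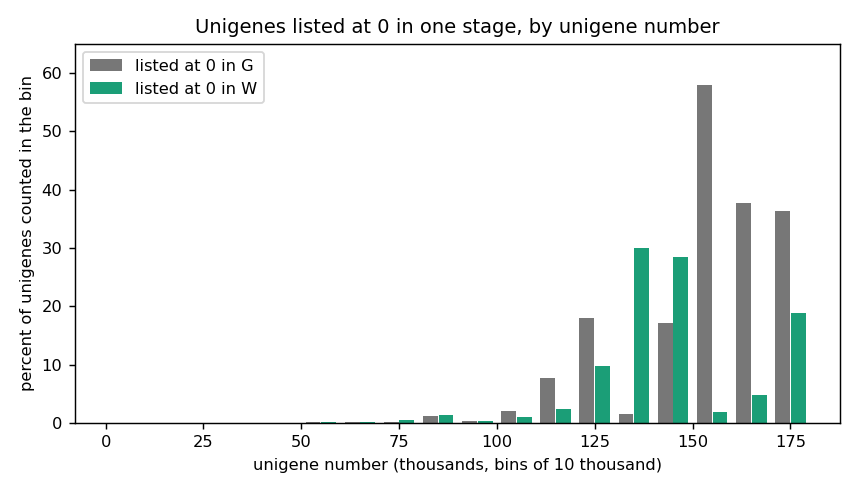
Percent of the unigenes counted that were listed at 0 in G (grey) or in W (green), in bins of 10000 consecutive unigene numbers. Values stay at or below 1.29% up to number 100000, W peaks at 30.0% between 130001 and 140000 and G at 57.9% between 150001 and 160000.

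The study's list for chlorophyll metabolism holds 70 different unigenes, of which 61 were counted and 58 of these had a value in both stages. The list was split, with 26 of the 58 higher in G and 32 lower. All 56997 unigenes with a value in both stages had 30095 higher and 26901 lower. The list's median was -0.14 beside 0.04 over all of them. At least 2-fold higher were 8 (13.8%, against 6.97% of all) and at least 2-fold lower 6 (10.3%, against 5.17%). This balance depended on the setting. Upper-quartile scaling gave 5 higher and 6 lower, beside 3550 and 3357 of the 56997 unigenes with a value in both stages. Quantile normalization gave 6 of each, beside 3933 and 3045. A pseudocount of 0.1 gave 11 higher and 9 lower, beside 9019 and 7846, so that the list's shares lay closer to those of all unigenes. At an FPKM of at least 10 the list had 6 of 25 higher and 4 lower (24% and 16%), where all unigenes had 16.9% and 7.75%. The list's median was then -0.25 beside 0.17 over all unigenes. The large differences in the 2 directions fell mostly on different enzymes. HEMA, CHLH, CRD, CAO and 1 CLH unigene were higher in G, and 5 PORA unigenes and another CLH unigene were lower.

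At the entry of the pathway, glutamyl-tRNA reductase (HEMA) makes the first committed intermediate from glutamate. Its 6 unigenes summed to an FPKM of 25.8 in W and 44.9 in G, and 5 of the 6 were higher in G. Unigene39518 had 3.63 in W and 10.3 in G, a difference of 1.29. Unigene91770 had 0.149 and 2.28, a difference of 1.52 that rests on a low W value. Of the others, unigene24328 (6.41 and 12.7) and unigene89159 (2.78 and 6.43) were just under 2-fold on this scale, unigene36734 had 3.34 and 5.72, and unigene1366, the highest in W, had 9.45 and 7.37.

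The steps from glutamate-1-semialdehyde to protoporphyrin had no further member that reached 2-fold on the log2(FPKM + 1) scale among unigenes with a value in both stages. With a pseudocount of 0.1 the count for HEMA to HEMG was 5 in place of 2, as HEMA unigene89159 and HEMB unigene127446 and unigene88206 then passed, at 1.18, 1.30 and 1.06. Glutamate-1-semialdehyde aminotransferase (GSA) unigene90011 had 95.7 in W and 79.9 in G. The porphobilinogen-forming HEMB was led by unigene5974, with 63.3 and 78.3, while unigene127446 (1.57 and 4.02) and unigene88206 (2.36 and 5.02) were 2.56 and 2.13 times their W values and unigene71483 (4.42 and 2.49) was lower. Hydroxymethylbilane synthase (HEMC) unigene39110 had 68.7 in W and 40.9 in G, a difference of -0.73. Uroporphyrinogen III synthase (HEMD) was led by unigene2151, with 16.8 and 21.04. All 6 uroporphyrinogen III decarboxylase (HEME) unigenes were lower in G, 1 of them listed at 0 there, with sums of 28.7 and 19.1, and unigene90629 had 13.1 and 8.78. The only listed unigene of coproporphyrinogen III oxidase (HEMF), unigene76942, was below an FPKM of 1 in both stages, and the protoporphyrinogen oxidase (HEMG) unigene1524 had 1.07 and 1.33. Neighbouring steps thus pointed in different directions, with HEMA and HEMB summing higher in G and GSA, HEMC and HEME summing lower.

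In the magnesium branch, the subunits of 1 enzyme differed unequally. Magnesium chelatase inserts magnesium into protoporphyrin and consists of the H, D and I subunits. Its H subunit, CHLH unigene24228, had an FPKM of 88.4 in W and 209 in G, which was 2.36 times the W value and a difference of 1.23. CHLI unigene8500 had 59.6 and 45.3, and CHLD unigene24743 and unigene55992 had 5.12 and 2.83 and 4.31 and 3.30. Both of the other subunits were therefore lower in G, while the H subunit was higher under every scaling used. The methyltransferase CHLM (unigene1808), which acts next, had 31.6 and 25.4.

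CRD, the cyclase that closes the fifth ring of the chlorophyll precursor, was the most abundant enzyme of the list in G. Its unigene12598 had 127 in W and 258 in G, a difference of 1.02, and unigene26832 had 8.65 and 18.8, a difference of 1.04. Both lay just past the 2-fold line and fell below it under upper-quartile scaling (0.94 and 0.96) and quantile normalization (0.74 and 0.87).

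Protochlorophyllide oxidoreductase, which reduces protochlorophyllide to chlorophyllide in the light, stood at the other end. In Arabidopsis, the A form is known as the one abundant in dark-grown seedlings. The 8 PORA unigenes summed to 85.7 in W and 31.9 in G. Unigene62053 had 13.2 in W and 0.822 in G, a difference of -2.96, and unigene7972 had 19.2 and 1.87, a difference of -2.81. Unigene57504 (11.3 and 2.47), unigene1225 (10.7 and 2.38) and unigene38214 (3.56 and 0.776) differed by -1.83, -1.79 and -1.36. Unigene8789 was the exception, with 26.1 and 21.7 and a difference of -0.25, so that it alone held most of the PORA FPKM in G. The remaining PORA unigenes, unigene131037 and unigene2533, were below an FPKM of 1 in both stages, and the first is also the only one listed for PORB. The 5 stayed at least 2-fold lower with a pseudocount of 0.1 and both scalings.

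Of the 5 unigenes for making and attaching the phytol tail, 4 were lower in G. Geranylgeranyl reductase (CHLP) unigene26550 had 85.5 in W and 74.3 in G, and unigene1182 had 2.46 and 3.29. Chlorophyll synthase (CHLG) unigene16139 had 8.72 and 7.58 and unigene4795 had 5.15 and 2.503. Unigene131775, the weakest CHLG unigene, had 1.89 and 0.815.

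Chlorophyll a and b are interconverted in a cycle, and its forward step had the clearer difference. CAO, the oxygenase that makes chlorophyll b, summed to 4.29 in W and 17.04 in G. Unigene37586 had 3.33 and 14.1, which was 4.22 times the W value and a difference of 1.80. Unigene16722 had 0.959 and 2.97, a difference of 1.02 that was 0.97 under upper-quartile scaling. On the way back, the chlorophyll b reductase NYC1 was slightly lower in G, with 34.7 and 27.9 in unigene37738 and 28.3 and 23.7 in unigene26042. The related NOL unigene102125 had 3.25 and 4.22. The HCAR unigene168719, for the reductase that completes the return to chlorophyll a, had 3.42 and 5.37.

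Among the breakdown enzymes, 1 chlorophyllase unigene had the largest difference of all 3 lists. Chlorophyllase (CLH) removes the phytol tail. Unigene131928 had an FPKM of 4.44 in W and 56.0 in G, which was 12.6 times the W value and a difference of 3.39, and its YG value was 0.0277. The other CLH unigenes did not share this. Unigene58748 had 16.8 and 13.8, unigene90639 had 12.9 and 6.81, and unigene56286 had 3.29 and 1.51. Unigene11687 was nearly equal, with 4.85 and 5.08, while unigene58581 had 2.05 and 0.0999, a difference of -1.47 that rests on low values. The 6 CLH unigenes summed to 44.4 in W and 83.3 in G, so that unigene131928 alone made up most of the G sum. Pheophytinase (PPH) unigene5416, which removes phytol during leaf senescence, had 18.4 and 19.7, and the pheophorbide a oxygenase (PaO) unigene89999, which opens the ring, had 2.65 and 3.89.

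**Figure D4:**
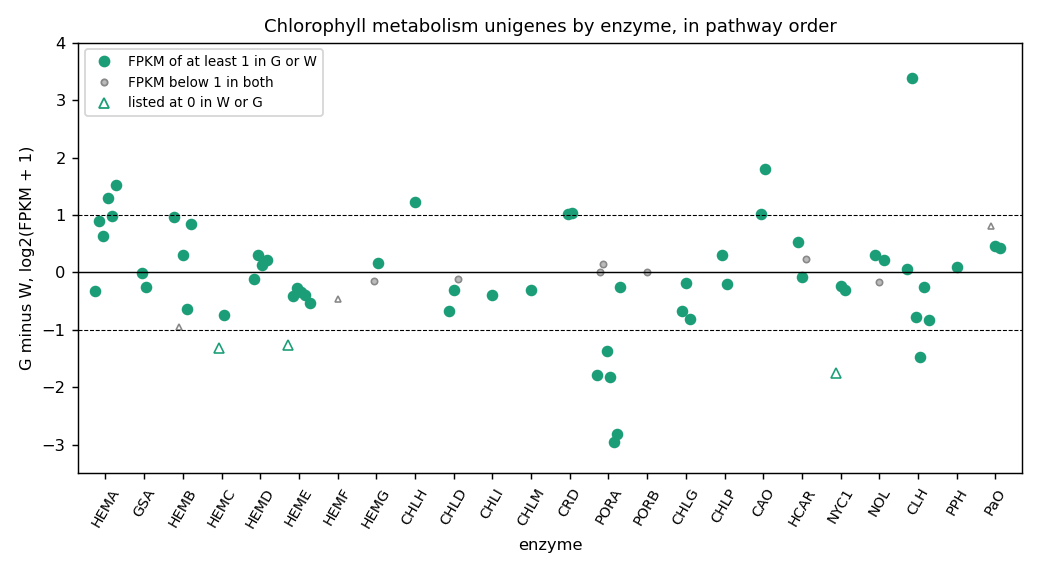
Difference between G and W in log2(FPKM + 1) for each unigene of the chlorophyll list, with the enzymes on the x axis in pathway order and dashed lines at a 2-fold difference. Filled points had an FPKM of at least 1 in G or W, small grey points were below 1 in both, and open triangles were listed at 0 in a stage; the PORA points reach down to -2.96 and the top CLH point, unigene131928, stands at 3.39.

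The carotenoid list was less split and its differences were smaller. As used here it holds 49 unigenes, fewer than the study's text gives, of which 36 were counted and 35 of these had a value in both stages. Of the 35, 29 were higher in G and 6 lower, beside 30095 and 26901 of all unigenes with a value in both stages. The list's median was 0.21 beside 0.04 over all unigenes. Only 1 was at least 2-fold higher (2.86%, against 6.97% of all) and none at least 2-fold lower (against 5.17%). At an FPKM of at least 10 the list had 1 of 13 higher (7.69%) and none lower, where all unigenes had 16.9% and 7.75%. The list's median was then 0.42 beside 0.17 over all unigenes. The count of 29 depended on the scaling and was 24 with upper-quartile scaling and 25 after quantile normalization. Small differences, mostly of precursor enzymes, then passed to the lower side. The count higher over all unigenes also fell, from 30095 to 27791 and 28635.

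The precursor steps showed little difference. DXS, the first enzyme of the plastid isoprenoid pathway, had sums of 30.1 in W and 25.9 in G. Its most abundant unigene, unigene3240, had 16.04 and 18.005, while unigene16957 (8.15 and 5.09) and unigene10858 (4.22 and 2.11) were lower in G. DXR unigene90269 had 6.31 and 6.38, ispD unigene6307 had 3.28 and 3.46, and ispE unigene133370 had 4.004 and 5.26. The largest difference in favour of G among these early enzymes was that of ispF, the cyclodiphosphate synthase, with 20.7 and 36.1 in unigene28019 and a difference of 0.77. All 4 IPI unigenes, for the isomerase that balances the building blocks, were slightly higher in G, with sums of 28.9 and 35.4 and 11.2 and 13.2 in unigene91645. GGPS, which joins the building blocks into the carotenoid backbone, was led by unigene41970, with 39.3 and 34.8, and by unigene10069, with 22.5 and 23.8.

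From phytoene onwards, all 7 unigenes of PSY, PDS and ZDS with a value in both stages were higher in G, as deposited and under both scalings. Phytoene synthase (PSY) makes the first carotenoid, and its unigene38088 had 23.7 in W and 66.7 in G, a difference of 1.45 and the only 2-fold one of the list. The other PSY unigenes were unigene26809, with 18.8 and 31.7, unigene59118, with 4.13 and 7.53, and unigene58014, with 1.37 and 1.52. Together the PSY unigenes went from 49.5 to 107. The desaturases follow PSY and turn phytoene into the red lycopene. ZDS unigene25830 had 15.3 and 30.5, a difference of 0.95, and PDS unigene17372 and unigene89678 had 9.70 and 13.4 and 2.65 and 3.94.

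At the branch point, lycopene becomes either β-carotene or the precursor of lutein. The β-cyclase LCY-b was higher in G in all 3 unigenes of the list as used here, and its most abundant one, unigene11724, had 10.98 and 19.9, a difference of 0.80. The ε-cyclase LCY-e, which leads towards lutein, differed less, with 9.89 and 11.1 in unigene89247. Further down, the zeaxanthin epoxidase ZEP1 unigene36818 had 30.8 and 58.0, a difference of 0.89. Both NXS unigenes, for neoxanthin synthase, were below an FPKM of 1 in both stages.

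The theanine list had the highest median of the 3. It holds 36 different unigenes, of which 27 were counted and 24 of these had a value in both stages. Of the 24, 19 were higher in G and 5 lower, or 18 and 6 under either scaling. All unigenes with a value in both stages had 30095 and 26901 as deposited. They had 27791 and 29206 with upper-quartile scaling, and 28635 and 28350 after quantile normalization. The list's median was 0.59 beside 0.04 over all unigenes. At least 2-fold higher were 5 (20.8%, against 6.97% of all) and at least 2-fold lower 1 (4.17%, against 5.17%). At an FPKM of at least 10 these were 5 of 15 and 1 of 15, or 33.3% and 6.67% beside 16.9% and 7.75% of all unigenes. The list's median was then 0.81 beside 0.17 over all unigenes.

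Of the 5 at least 2-fold higher, 4 were glutamine synthetase (GS) or theanine synthase (TS) unigenes. The study lists 6 unigenes under both names, and reads may be shared between them. GS joins ammonium to glutamate, and TS joins ethylamine to it. The 18 unigenes of either name summed to 339 in W and 633 in G. Unigene58305 had 106 in W and 243 in G, a difference of 1.19 that was 0.88 under quantile normalization. Unigene37325 (26.5 and 66.1) and unigene25911 (29.1 and 67.8), both listed under both names, and unigene39849 (10.8 and 27.9), listed as TS only, differed by 1.29, 1.19 and 1.29. Among those with a value in both stages, the 1 counted GS or TS unigene lower in G was unigene6286, also listed under both names, with 19.97 and 7.55 and a difference of -1.29. Unigene13585, the second in abundance, had 100.4 and 153, a difference of 0.61. Of the rest, GS unigene4749 had 24.6 and 33.7 and TS unigene89631 had 14.8 and 26.7.

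Alanine decarboxylase (AIDA) is the proposed source of ethylamine. By the study's account no gene for it had been characterized, and the unigenes listed as AIDA encode arginine decarboxylases with similar domains, so their values stand for putative members only. The AIDA unigenes were split. Unigene37160 had 15.6 in W and 37.7 in G, a difference of 1.22, and unigene89828 (17.4 and 31.3) and unigene4834 (7.80 and 15.4) were also higher. The most abundant AIDA unigene of the W stage, unigene132868, went the other way, with 39.1 and 22.5, and so did unigene81677, with 14.5 and 9.36. The sum over the 5 was 94.3 in W and 116 in G. Glutamate synthase (GOGAT), which returns glutamine to glutamate, summed to 81.4 and 117, led by unigene201 with 29.5 and 55.7 and a difference of 0.90. Unigene168460 had 13.2 and 20.5, while unigene24016 had 8.84 and 5.81.

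**Figure D5:**
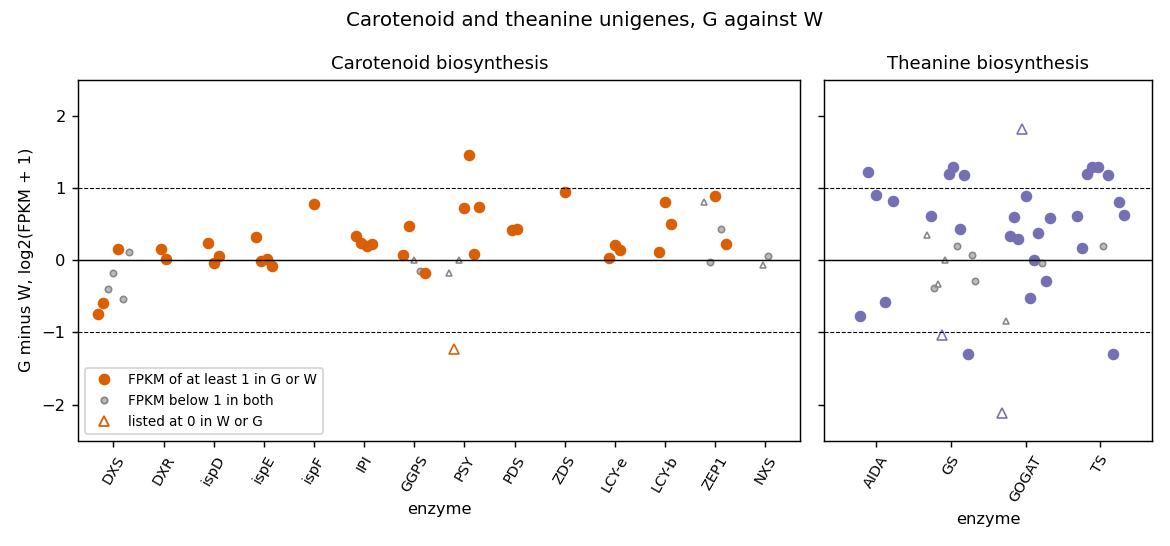
Difference between G and W in log2(FPKM + 1) for each unigene of the carotenoid list (left, orange) and the theanine list (right, violet), by enzyme, with dashed lines at a 2-fold difference and the symbols of the chlorophyll plot. Most filled points lie above 0 in both panels; PSY unigene38088 at 1.45 is the only filled carotenoid point past the line, and GS and TS unigene6286 at -1.29 appears under both names.

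Counted list members listed at 0 in 1 stage were few. There were 6 at 0 in G, namely HEMC unigene155946, HEME unigene154816, NYC1 unigene164039, PSY unigene161274, GOGAT unigene154448 and GS unigene158228, with W values between 1.06 and 3.34 and all of them listed at 0 in YG as well. All 6 have numbers between 154448 and 164039, and from 150001 to 165000 61.5% of the 5625 unigenes counted were listed at 0 in G. Only GOGAT unigene175936 was listed at 0 in W, with 2.51 in G. For each of these enzymes another unigene with a value in both stages was more abundant.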

How the data were processed

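RNA-seq of ‘Anji Baicha’ leaves (3 libraries per stage) was compared between G and W, with YG values only set beside them. The authors filtered the reads, built unigenes de novo with Trinity and other assemblers, and deposited FPKM values from Cufflinks, 1 column per stage. The submitters' processing notes give Cufflinks 2.1.1 and the paper another version. The aligner, how libraries were combined and how shared reads were treated are not given in the sources used here.

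Columns were joined on the unigene identifier. A unigene was counted at an FPKM of 1 or more in either stage, the pseudocount was 1, and a log2 size of at least 1 was called 2-fold apart. With 1 value per stage no test was possible. The members and lists were chosen with earlier results of these data known. Enzyme abbreviations and lists are those of the study's supplementary tables, where some full enzyme names stand beside the wrong abbreviation. Named by rule were list members above 0 in both stages and at least 2-fold apart, the most abundant unigene per enzyme, the 10 largest differences each way, the 5 highest unigenes per stage and the 5 highest listed at 0 in the other stage. Any further list member was picked with its value in view. Alternatives were a pseudocount of 0.1, no minimum, minimums of 5 and 10, division by the 75th percentile, quantile normalization, and leaving out unigenes at 0. The counting was tested on simulated data. Python 3.11.15, pandas 2.3.3, numpy 2.4.6 and matplotlib 3.10.9 were used.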

Additional observations from a re-analysis of the deposited data

How the results depend on the processing

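No paired analysis was possible because each stage holds 1 pooled value per unigene, and for the same reason no library could be left out. The counts moved with the minimum and the pseudocount. Unigenes at least 2-fold apart numbered 17399, with 8083 higher and 9316 lower in G. They were 27343, 13130 and 14213 with a pseudocount of 0.1, 3454, 2117 and 1337 with a minimum of 5, 1551, 1059 and 492 with a minimum of 10, and 6921, 3972 and 2949 without unigenes at 0. The share higher among them, 46.5%, passed to the other side of 50% with a minimum of 5 (61.3%) or 10 (68.3%) and without unigenes at 0 (57.4%). The overall median of 0.01 became -0.050 with no minimum, 0.15 and 0.17 with minimums of 5 and 10, -0.044 with upper-quartile scaling and -0.023 with quantile normalization. Unigenes at 0 in G (6367) and in W (4111) became 21758 and 12542 with no minimum, 201 and 183 with 5, and 18 and 27 with 10.

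With unigenes at 0 included, the carotenoid median of 0.20 was 0.33 and 0.42 with minimums of 5 and 10, and its 1 member at least 2-fold lower, listed at 0 in G, dropped to 0 with either minimum or without unigenes at 0. The chlorophyll median of -0.20 was -0.34 under quantile normalization, its 8 higher members became 5 under upper-quartile scaling, and its 9 lower members became 4 with a minimum of 5 or 10. The theanine median of 0.59 was 0.34 with no minimum, 0.81 with a minimum of 10 and 0.43 under quantile normalization, and its 3 lower members became 1 with either minimum or without unigenes at 0. The 159 unigenes followed singly were the counted list members and the leading unigenes named by rule. Of the 159, 58 were at least 2-fold apart, beside 25.8% of all unigenes counted. Many of the 58 were chosen for the size of their difference, so the 2 shares cannot be compared. Most alternatives could not change the direction of any of them. The minimums and leaving out unigenes at 0 do not alter a unigene's own value, and another pseudocount cannot change its sign. Upper-quartile scaling applies 1 factor per stage and moved the overall median by only -0.056. Under quantile normalization none of the 58 changed direction, which says little where unigenes were chosen for a large difference. Upper-quartile scaling and quantile normalization each took 3 of them under 2-fold, and a pseudocount of 0.1 brought 6 further ones past it.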
